A study of Mus musculus with 10 samples.

Results

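The p53 target genes described here are 32 named mouse genes, taken by symbol from the 53465 genes counted in every library: Trp53 itself, which encodes the transcription factor p53, and 31 genes that p53 is known to activate or that regulate it. All 32 were among the 13182 genes with enough counts to test, although Eda2r, a tumour necrosis factor receptor family gene, reached only 0.110 to 0.590 CPM (counts scaled to a common library size). The members were read in CD8 T cells from spleens and peripheral lymph nodes of C57BL/6 OT-I mice, which carry a transgenic T cell receptor for an ovalbumin peptide. Cells were activated for 3 days with that peptide and recombinant interleukin-2 in 25 mM glucose, then kept in 1 mM glucose for 24 h (labelled d5) or 120 h (labelled d9). At each day a further group received 5 mM sodium acetate for the last 1 day, and every group was restimulated with PMA and ionomycin for 4 h before polyadenylated RNA was taken. The groups were d5 (n = 2), d5 with acetate (n = 2), d9 (n = 3) and d9 with acetate (n = 3). All 4 groups therefore carried the transgenic receptor, low glucose and restimulation, and no group kept in high glucose was analysed here. The sources used here give neither age nor sex of the mice. Days of activation and restriction do not add up to the labelled days, and time in culture and length of restriction cannot be told apart.

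The protein p53 is held low in unstressed cells because Mdm2 ubiquitinates it and Mdm4 masks its activation domain. DNA damage, oncogenic signals, ribosomal stress and nutrient stress release p53, mostly through protein stability and modification rather than through more Trp53 mRNA. It then activates genes that stop the cell cycle, repair DNA, adjust metabolism or kill the cell, and several targets, Mdm2 among them, feed back on p53. In T cells p53 is known to restrain proliferation. Many of its targets also answer to other factors: Btg2 and Plk2 are known as genes that stimulation switches on.

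Promoter sequence was available for 25 of the 32 members in RefSeq (build GRCm38.p6), as windows from 250 bases before to 50 after each start. The members without an entry were Trp53inp1, Rrm2b, Xpc, Perp, Ddb2, Zmat3 and Tnfrsf10b. Windows were searched for the p53 half-site, the 10-base motif that p53 binds in pairs, for 2 half-sites 0 to 13 bases apart (the p53 response element), and for the cyclic AMP response element TGACGTCA, a site of stimulus-activated factors. Each of these motifs reads as the same motif on either strand, and every response element also counts as half-sites. A half-site was present in 12 of 25 members (48%), against 9.55% of 27025 genes in the table and 7.82% of the 9483 tested genes in it. The response element was present in 1 member, Cdkn1a, and in 0.074% of all genes in the table. The cyclic AMP response element was present in 3 members, Btg2, Plk2 and Ppm1d (12%), against 2.03% of all genes in the table and 3.69% of the tested ones. Such matches describe letters in a window and show no binding.

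The 250 bases before the start site are printed for 3 members with half-sites, shown because 2 of them were higher at d9 without acetate and 1, Mdm2, did not pass, and for 2 members with the cyclic AMP element that moved in opposite directions. Of the members with a half-site, Aen, Ccng1, Cdkn1a and Sesn1 were higher at d9 without acetate. Abhd4, Ei24, Gadd45a, Mdm2, Polk, Ppm1d, Rps27l and Trp53 did not pass. Phlda3, Fas, Btg2 and Slc19a2 were higher without a half-site in their windows. Capitals mark half-sites in the first 3 sequences and the cyclic AMP element in the other 2, all written 5′ to 3′ on the gene's strand. A gene can have more than 1 start window (32851 windows for 27025 genes). For Cdkn1a a window holding the response element was chosen for printing, and for the other genes the first one listed. In the printed window of Cdkn1a (chr17:29090729-29090978, plus strand) the half-sites begin 73 and 51 bases before the start. In Ccng1 (chr11:40755287-40755536, minus strand) and Mdm2 (chr10:117710759-117711008, minus strand) the single half-site begins 185 and 186 bases before it. The cyclic AMP element begins 166 bases before the start of Btg2 (chr1:134079156-134079405, minus strand) and 62 bases before that of Plk2 (chr13:110394794-110395043, plus strand).
Cdkn1a: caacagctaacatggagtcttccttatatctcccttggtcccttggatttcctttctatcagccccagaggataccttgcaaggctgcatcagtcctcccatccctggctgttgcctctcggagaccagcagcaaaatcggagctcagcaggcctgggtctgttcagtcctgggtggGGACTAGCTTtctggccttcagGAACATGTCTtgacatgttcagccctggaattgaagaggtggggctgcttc
Ccng1: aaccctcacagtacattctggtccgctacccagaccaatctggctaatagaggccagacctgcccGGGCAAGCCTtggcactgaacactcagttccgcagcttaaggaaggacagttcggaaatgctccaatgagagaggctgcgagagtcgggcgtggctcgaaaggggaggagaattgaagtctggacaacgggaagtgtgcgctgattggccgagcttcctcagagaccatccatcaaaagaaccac
Mdm2: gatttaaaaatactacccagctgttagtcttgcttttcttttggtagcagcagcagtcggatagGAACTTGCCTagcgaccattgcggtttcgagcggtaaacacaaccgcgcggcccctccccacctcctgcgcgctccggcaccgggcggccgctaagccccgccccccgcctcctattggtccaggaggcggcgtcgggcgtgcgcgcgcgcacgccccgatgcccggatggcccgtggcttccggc
Btg2: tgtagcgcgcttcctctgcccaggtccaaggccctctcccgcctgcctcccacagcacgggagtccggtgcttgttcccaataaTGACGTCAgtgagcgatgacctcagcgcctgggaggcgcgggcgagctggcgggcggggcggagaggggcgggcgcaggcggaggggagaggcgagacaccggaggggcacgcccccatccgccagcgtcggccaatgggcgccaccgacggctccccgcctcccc
Plk2: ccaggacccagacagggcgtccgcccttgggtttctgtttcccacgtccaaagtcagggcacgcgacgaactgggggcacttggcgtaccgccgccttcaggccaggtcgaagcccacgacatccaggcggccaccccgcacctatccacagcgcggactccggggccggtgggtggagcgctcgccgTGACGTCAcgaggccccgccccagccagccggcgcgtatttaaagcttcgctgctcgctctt

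Libraries held 16.59 to 24.66 M counts, with the d9 libraries deeper than the d5 ones. The 7 CD8 T cell markers summed to 1786 to 1911 CPM at d5, 2110.5 to 2179 CPM at d5 with acetate, 2442 to 2539 CPM at d9 and 2324 to 2662 CPM at d9 with acetate. Of these markers 5 were called higher at d9 without acetate and 1 with it. Those shares were 71.4% and 14.3%, against 15.9% and 18.5% of all tested genes called higher. With acetate at d5 1 of them was called higher, or 14.3% against 0.66% of all tested genes. The 6 B cell markers summed to 1.16 to 1.69 CPM at d5, 3.25 to 5.15 CPM at d5 with acetate and 0.801 to 1.83 CPM over both d9 groups, and Cd79b was called higher with acetate at d5 (log2 1.64). In the acetate groups Cd79b was called lower at d9 than at d5 (log2 -1.75). Markers of monocytes and macrophages (at most 2.46 CPM), dendritic cells (at most 3.53 CPM) and erythroid cells (at most 0.112 CPM) were near 0. Among 3 CD4 T cell markers Cd4 stood at 0.234 to 1.70 CPM over all libraries and Foxp3 at most at 0.112 CPM. Cd4 was called higher at d9 without acetate (log2 2.18). Cd40lg, which activated T cells express, stood at 9.65 and 11.3 CPM at d5 and at 1.21 to 3.77 CPM at d9. Cd40lg was called lower at d9 without acetate (log2 -2.03). With acetate neither Cd4 (log2 0.813) nor Cd40lg (-0.375) was called between the days. The 3 NK cell markers summed to 1.23 to 1.88 CPM at d5, 5.21 to 6.05 CPM at d5 with acetate, 9.05 to 13.8 CPM at d9 and 18.2 to 25.9 CPM at d9 with acetate. That sum came mainly from Klrb1c, with the defining gene Ncr1 near 0. Klrb1c was called higher at d9 without acetate (log2 2.86) and with it (1.93). It was also called higher with acetate at d5 (log2 1.86) and over both days (1.40). The part of these markers in the members' changes was not tested. Replicate 1 of d9 and replicate 2 of d9 with acetate stood apart, with 15.4% and 15.1% of counts on genes of ribosomal proteins, while the remaining 4 d9 libraries had 11.1 to 12.7%. The d5 libraries had 11.9% and 10.7%, and those of d5 with acetate also differed, at 11.7% and 13.9%. Whether replicates came from separate cultures or animals is not labelled, and the p-values here reflect the scatter among these samples alone, which may be technical. In bulk RNA a lower value can mean fewer cells expressing a gene or less RNA per cell, and these cannot be told apart.

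Per length of exon, Cdkn1a had the highest median level over all libraries, at 351.5 RPKM (CPM divided by exon length in kilobases). It was followed by Rps27l at 202.5 RPKM, Btg2 at 119 RPKM, Plk3 at 59.99 RPKM and Trp53 at 54.05 RPKM. The order changed with the day: at d5 Rps27l (172 RPKM) stood above Cdkn1a (154 RPKM), and Trp53 (67.7 RPKM) above Plk3 (51.0 RPKM). The lowest medians were those of Gadd45a at 1.38 RPKM, Rrm2b at 1.03 RPKM and Eda2r at 0.0637 RPKM. Rps27l has near-identical ribosomal protein relatives and pseudogenes, so its level is uncertain. Exons of 6 members overlap a gene on the opposite strand in GENCODE M21 (Cdkn1a, Ddb2, Ei24, Gadd45a, Plk3 and Rrm2b). Whether reads of those pairs were separated is not known. The libraries were stranded per the labels, but no source used here states whether counting used strand.

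The first question was how the members differed between 24 h and 120 h of low glucose. The survival regulator Phlda3, the RNA-binding protein gene Zmat3 and the cell cycle inhibitor Cdkn1a were higher at d9 by 2.35-fold to 6.02-fold, while Trp53inp1, Plk2 and Mdm4 were lower. Trp53 and Mdm2 mRNA did not pass the test in either acetate state. Without acetate 18 of 32 members passed an adjusted p of 0.05 (edgeR quasi-likelihood, Benjamini-Hochberg over all tested genes), 11 higher and 7 lower. The share was 56.2%, against 37.1% of all tested genes (15.9% higher and 21.2% lower). With acetate 15 members passed, 9 higher and 6 lower, or 46.9% against 41.6% of all tested genes (18.5% higher and 23.1% lower). The median log2 change of the 32 members was 0.35 without and 0.21 with acetate, against -0.01 over all tested genes in both. The comparisons with and without acetate share no libraries but share the estimate of spread. All 15 members called with acetate were also called in the same direction without it, 9 higher and 6 lower. Of the 5480 tested genes called with acetate, 3682 were called the same way without it, 1497 higher and 2185 lower. Genes called the same way in both states made up 46.9% of the 32 members and 27.9% of all tested genes. Groups did not overlap for 14 higher and 9 lower members without acetate and for 14 higher and 7 lower with it, against 63.1% (29.7% higher and 33.4% lower) and 62.5% (29.1% higher and 33.4% lower) of all tested genes. The log2 change was above 0 for 20 members without acetate and 22 with it, against 49.2% of all tested genes in each state. It had the same sign in both states for 28 members, against 81.6% of all tested genes, and the opposite sign for Apaf1, Gadd45a, Perp and Trp53. The count without acetate was 11 without d5 replicate 1 and 12 without d5 replicate 2, and that with acetate was 8 without d5 acetate replicate 1.

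**Figure D1:**
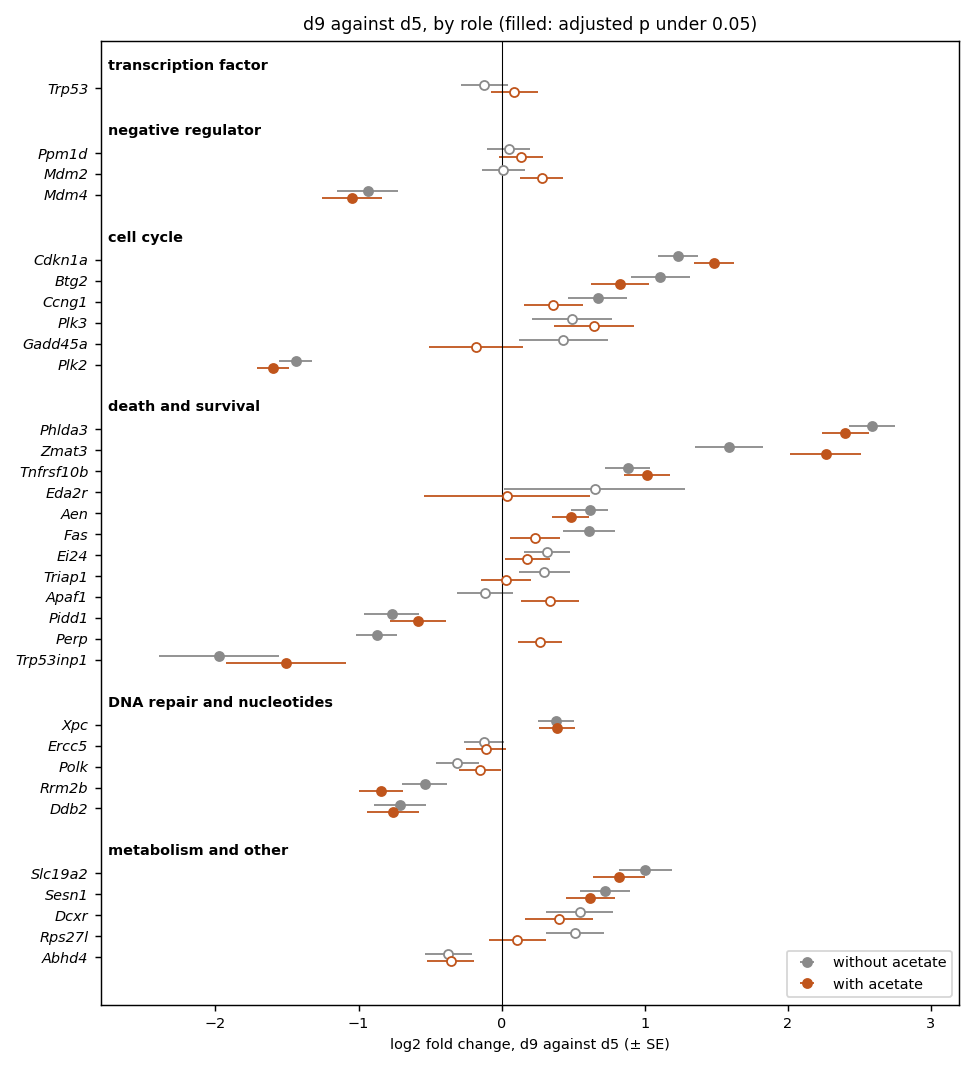
Log2 fold change of d9 against d5 (x axis, bars are ± SE) for each of the 32 members grouped by role, without acetate in grey and with acetate in orange, filled where the adjusted p was under 0.05. Phlda3 (2.59 and 2.40) lies farthest right and Trp53inp1 (-1.98) farthest left, and Perp lies on opposite sides of 0 (-0.87 and 0.27).

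Trp53 (ENSMUSG00000059552, chromosome 11, 69580359 to 69591873, GRCm38) stood at 255 and 293 CPM in the d5 libraries and at 199, 277 and 279 CPM in the d9 libraries. With acetate it stood at 199 and 185 CPM at d5 and at 211, 176 and 226 CPM at d9. These ranges overlapped between the days, with d9 replicate 1, a library of high ribosomal protein share, the lowest of its group. The log2 change of d9 against d5 was -0.12 ± 0.16 (SE; interval of ± 2 SE from -0.45 to 0.21) without acetate and 0.09 ± 0.17 (-0.24 to 0.42) with it, with edgeR adjusted p = 0.592 and 0.689. Its sign without acetate turned when d9 replicate 1 was left out (0.04), and with acetate it turned under scaling by library size only (-0.01).

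Of the 3 negative regulators only Mdm4 passed, and it was lower at d9. Mdm2 (chromosome 10, 117688875 to 117710758) stood at 86.4 and 73.4 CPM at d5 and at 84.9, 80.4 and 76.1 CPM at d9. With acetate its values were 76.1 and 65.5 CPM at d5 against 103, 76.1 and 79.4 CPM at d9. The d9 libraries fell within the d5 range without acetate and lay above it with acetate, 1 of them barely, and the log2 changes were 0.01 ± 0.15 (interval -0.29 to 0.31) and 0.28 ± 0.15 (-0.02 to 0.58; edgeR adjusted p = 0.963 and 0.155). The change with acetate passed when d9 acetate replicate 2 was left out (edgeR adjusted p = 0.0485). Mdm4 (chromosome 1, 132959484 to 133030561) stood at 83.8 and 74.9 CPM at d5 and at 43.4, 42.7 and 38.3 CPM at d9. With acetate it was at 124 and 80.2 CPM at d5 and at 63.4, 45.5 and 39.4 CPM at d9. Every d9 library lay below every d5 library in both acetate states, and Mdm4 fell by 0.94 ± 0.21 on the log2 scale without and by 1.05 ± 0.21 with acetate (edgeR adjusted p = 0.00619 and 0.00307). The first call was lost without d5 replicate 1 (adjusted p = 0.05195) and the second without d5 acetate replicate 1 (adjusted p = 0.0542), both by edgeR. Ppm1d, a phosphatase that switches off p53 signalling, ranged from 20.1 to 27.4 CPM over all libraries and did not pass (log2 0.05 and 0.14).

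Among the 6 cell cycle members, 3 were higher at d9 without acetate (Cdkn1a, Btg2 and Ccng1) and 2 with it (Cdkn1a and Btg2), and Plk2 was lower in both. Cdkn1a (ENSMUSG00000023067, chromosome 17, 29090976 to 29100727) encodes p21, the inhibitor of cyclin-dependent kinases through which p53 halts division. It stood at 508 and 589 CPM at d5 and at 1367, 1347 and 1151 CPM at d9. With acetate the values were 554 and 583 CPM at d5 against 1458, 1539.8 and 1772 CPM at d9. The lowest d9 library was well above the highest d5 library, and Cdkn1a rose 2.35-fold without acetate (log2 1.23 ± 0.14, edgeR adjusted p = 9.845e-05) and 2.80-fold with it (1.48 ± 0.14, 3.831e-05). Btg2 encodes an antiproliferative protein that recruits the mRNA deadenylase complex. It stood at 155 and 184 CPM at d5 and at 449, 346 and 302 CPM at d9. In the acetate groups it was at 248 and 307 CPM at d5 and at 393, 509.6 and 573 CPM at d9. No d9 library overlapped its d5 group, and Btg2 rose by log2 1.11 ± 0.21 and 0.83 ± 0.20 (edgeR adjusted p = 0.00202 and 0.00847), although the second call was lost without d5 acetate replicate 1 (0.0846).

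Ccng1, which encodes cyclin G1, a partner of a phosphatase that acts on Mdm2, stood at 104 and 94.6 CPM at d5 and at 204, 145 and 127 CPM at d9. With acetate the values were 124 and 128 CPM at d5 and 184, 173 and 128 CPM at d9. The groups were separate in both states, but the lowest d9 acetate value lay barely above the d5 ones. Ccng1 rose without acetate (log2 0.67 ± 0.21, edgeR adjusted p = 0.0256), a call lost under scaling by library size only (0.0570) and without d5 replicate 1 (0.0876) or replicate 2 (0.155), and it did not pass with acetate (0.36 ± 0.20, edgeR adjusted p = 0.174). The difference between these 2 changes was log2 -0.31 ± 0.29 (edgeR adjusted p = 0.753). Plk2 (ENSMUSG00000021701, chromosome 13, 110395046 to 110400844), a polo-like kinase of the stress and centriole pathways, stood at 113 and 139 CPM at d5 and at 49.6, 45.0 and 44.6 CPM at d9. With acetate it was at 167 and 169 CPM at d5 and at 57.4, 53.7 and 55.2 CPM at d9. The groups lay far apart, and Plk2 fell by log2 1.44 ± 0.11 without acetate (2.71-fold lower, edgeR adjusted p = 1.294e-05) and by 1.60 ± 0.11 with it (3.03-fold lower, 7.821e-06). Plk3, its relative, ranged from 101 to 223 CPM with 115 CPM in d9 replicate 1 against 207 and 223 CPM in the other d9 libraries, and did not pass (log2 0.49 ± 0.28 and 0.65 ± 0.28). Without d9 replicate 1 Plk3 passed in both states (edgeR adjusted p = 0.0187 and 0.0167), and with acetate it also passed without d9 acetate replicate 2 (0.0408), in a fit on the compared libraries alone (0.0456) and by DESeq2 (0.0454). Gadd45a, a growth arrest gene, ranged from 1.45 to 4.75 CPM and did not pass (log2 0.43 ± 0.31 and -0.18 ± 0.33).

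The 12 members of death and survival held the widest range of changes, with 5 higher and 3 lower without acetate and 4 higher and 2 lower with it. Phlda3 (ENSMUSG00000041801, chromosome 1, 135766119 to 135769136), a repressor of the survival kinase Akt, changed most of all members. It stood at 6.12 and 6.43 CPM at d5 and at 39.0, 40.4 and 33.9 CPM at d9. In the acetate groups it was at 5.10 and 6.05 CPM at d5 and at 33.0, 29.3 and 26.3 CPM at d9. Each d9 library stood several times above each d5 library, and Phlda3 rose 6.02-fold without acetate (log2 2.59 ± 0.16, edgeR adjusted p = 3.647e-06) and 5.29-fold with it (2.40 ± 0.16, 6.151e-06). Zmat3 (ENSMUSG00000027663, chromosome 3, 32334792 to 32366014) encodes an RNA-binding zinc finger protein. It stood at 36.7 and 43.9 CPM at d5 and at 94.7, 147 and 123 CPM at d9. The acetate groups had 26.96 and 28.7 CPM at d5 and 165, 96.2 and 140.4 CPM at d9. The lowest value in each d9 group came from the library of high ribosomal protein share and still exceeded every d5 value. Zmat3 rose 3.01-fold without acetate (log2 1.59 ± 0.24, edgeR adjusted p = 5.84e-04) and 4.81-fold with it (2.26 ± 0.25, 8.634e-05).

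Both death receptor genes were higher at d9 without acetate. Tnfrsf10b, the mouse receptor for the death ligand TRAIL, stood at 22.1 and 26.2 CPM at d5 and at 39.0, 49.95 and 44.3 CPM at d9. With acetate it was at 19.3 and 21.04 CPM at d5 and at 45.7, 34.9 and 41.8 CPM at d9. The groups did not overlap, and it rose by log2 0.88 ± 0.16 and 1.01 ± 0.16 (edgeR adjusted p = 0.00182 and 7.63e-04). Fas, the receptor for Fas ligand that removes activated T cells, stood at 12.1 and 15.3 CPM at d5 and at 24.68, 18.5 and 19.5 CPM at d9. In the acetate groups Fas was at 20.0 and 22.5 CPM at d5 and at 22.3, 28.5 and 24.4 CPM at d9. The groups were separate without acetate and overlapped with it, where the d5 values were already near those of d9. Fas rose without acetate (log2 0.61 ± 0.18, edgeR adjusted p = 0.0217), a call lost without d5 replicate 1 (0.188), and did not pass with it (0.24 ± 0.17, 0.298). The difference between the 2 changes was log2 -0.37 ± 0.25 (edgeR adjusted p = 0.709). Aen, an apoptosis-enhancing nuclease, stood at 83.6 and 90.3 CPM at d5 and at 138, 133 and 129 CPM at d9. The acetate groups had 95.8 and 110.2 CPM at d5 and 135, 166 and 131 CPM at d9. These groups did not overlap, and Aen rose by log2 0.62 ± 0.13 and 0.48 ± 0.13 (edgeR adjusted p = 0.00413 and 0.0130). The calls were lost without d5 replicate 1 (0.0509) and without d5 acetate replicate 1 (0.122).

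In this group 3 members were lower without acetate. Trp53inp1, a stress-induced nuclear protein that promotes p53 phosphorylation and autophagy, stood at 47.1 and 44.6 CPM at d5 and at 14.96, 11.5 and 8.57 CPM at d9. With acetate the values were 38.0 and 22.4 CPM at d5 and 17.6, 9.11 and 5.07 CPM at d9. The groups were separate although replicates within the acetate groups differed widely. Trp53inp1 fell by log2 1.98 ± 0.42 (3.93-fold lower) and by 1.51 ± 0.42 (edgeR adjusted p = 0.00455 and 0.0162). The second call was lost without d5 acetate replicate 1 (0.160), without a low-count filter (0.103) and without both libraries of high ribosomal protein share (0.102). Pidd1, the scaffold of a caspase-2 complex, stood at 14.9 and 15.2 CPM at d5 and at 6.67, 9.23 and 10.6 CPM at d9. In the acetate groups Pidd1 was at 11.99 and 10.8 CPM at d5 and at 8.64, 6.96 and 7.12 CPM at d9. It was lower in every d9 library, and fell by log2 0.77 ± 0.19 and 0.59 ± 0.20 (edgeR adjusted p = 0.0102 and 0.0340). Without acetate this call was lost when d5 replicate 1 or 2 was left out (0.0554 and 0.0660). With acetate it was lost when 1 of 6 libraries was left out: d5 replicate 1 (0.0525) or 2 (0.0549), d5 acetate replicate 1 (0.178) or 2 (0.0835) and d9 acetate replicate 2 (0.0907) or 3 (0.0897). Perp, a membrane protein of desmosomes and p53-dependent death, fell without acetate by log2 0.87 ± 0.14 (1.83-fold lower, edgeR adjusted p = 9.73e-04), and its values stand with the acetate comparison. The 4 members that did not pass in either state were Ei24, Eda2r, Apaf1, the core of the apoptosome, and Triap1, an inhibitor of apoptosis. Their log2 changes ran from -0.12 to 0.65 without acetate and from 0.03 to 0.34 with it. With acetate Apaf1 passed when d9 acetate replicate 2 was left out (log2 0.55, edgeR adjusted p = 0.0190).

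**Figure D2:**
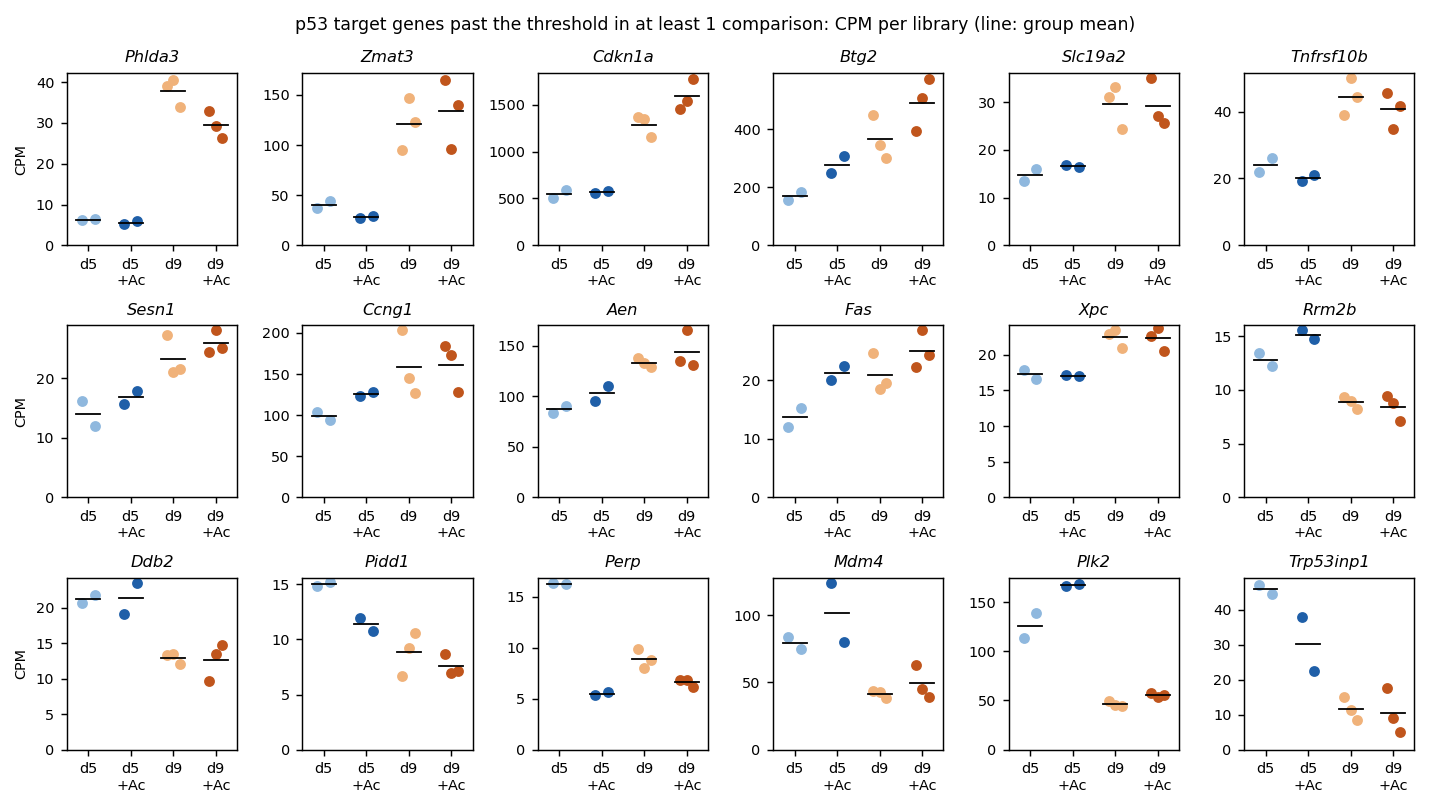
CPM in each of the 10 libraries (points; the line is the group mean) for the 18 members past the threshold in at least 1 comparison, ordered from the largest rise to the largest fall at d9 without acetate. The d9 points of Phlda3, Zmat3 and Cdkn1a lie above all d5 points, those of Plk2 and Trp53inp1 lie below, and Perp is highest in the d5 libraries without acetate (16.3 and 16.2 CPM).

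The 5 members of DNA repair and nucleotide supply were lower or did not pass, except Xpc. Ddb2, a sensor of ultraviolet damage, stood at 20.6 and 21.7 CPM at d5 and at 13.3, 13.4 and 12.1 CPM at d9. The acetate groups had 19.1 and 23.5 CPM at d5 and 9.61, 13.4 and 14.7 CPM at d9. Every d9 library lay below every d5 library, and Ddb2 fell by log2 0.71 ± 0.18 and 0.76 ± 0.18 (edgeR adjusted p = 0.0109 and 0.00695). The calls were lost without d5 replicate 1 or 2 (0.0514 and 0.0775) and without d5 acetate replicate 2 (0.0781). Rrm2b, the p53-inducible subunit of ribonucleotide reductase, stood at 13.4 and 12.3 CPM at d5 and at 9.32, 8.93 and 8.27 CPM at d9. In the acetate groups it was at 15.6 and 14.7 CPM at d5 and at 9.44, 8.79 and 7.08 CPM at d9. The days were again separate, and Rrm2b fell by log2 0.54 ± 0.16 and 0.84 ± 0.15 (edgeR adjusted p = 0.0200 and 0.00167). The first call was lost without a low-count filter (0.0658) and without d5 replicate 1 (0.129), d5 replicate 2 (0.0665) or d9 replicate 3 (0.0649). Xpc, which recognises bulky DNA lesions, stood at 17.9 and 16.59 CPM at d5 and at 22.9, 23.4 and 20.97 CPM at d9. With acetate the values were 17.1 and 17.04 CPM at d5 and 22.6, 23.7 and 20.5 CPM at d9. The groups were separate by a small margin, and Xpc rose by log2 0.38 ± 0.13 in both states (edgeR adjusted p = 0.0361 and 0.0314), calls lost under 9 and 7 of 19 alternatives. The highest adjusted p for Xpc was 0.198 without d5 replicate 2, and 0.129 in the acetate state without d5 acetate replicate 2. The translesion polymerase gene Polk (15.3 to 21.6 CPM) and the repair nuclease gene Ercc5 (9.01 to 13.4 CPM) did not pass.

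Of 5 members of metabolism and other functions, Slc19a2 and Sesn1 were higher at d9. Slc19a2, a thiamine transporter, stood at 13.5 and 16.01 CPM at d5 and at 31.2, 33.2 and 24.5 CPM at d9. With acetate it was at 16.8 and 16.4 CPM at d5 and at 34.98, 27.02 and 25.7 CPM at d9. The groups were separate, and Slc19a2 rose by log2 1.00 ± 0.18 and 0.82 ± 0.18 (edgeR adjusted p = 0.00186 and 0.00489). Sesn1, a stress-induced inhibitor of the growth kinase complex mTORC1, stood at 16.1 and 11.975 CPM at d5 and at 27.2, 20.95 and 21.5 CPM at d9. In the acetate groups it was at 15.7 and 17.8 CPM at d5 and at 24.3, 28.03 and 25.1 CPM at d9. No library crossed between the days, and Sesn1 rose by log2 0.72 ± 0.17 and 0.62 ± 0.17 (edgeR adjusted p = 0.00824 and 0.0150). The calls were lost without d5 replicate 2 (0.0989) and without d5 acetate replicate 1 (0.112). Rps27l (138 to 247 CPM), Dcxr, a reductase of sugars (5.77 to 12.4 CPM), and Abhd4, a lipid hydrolase (9.18 to 14.5 CPM), did not pass in either state. Without acetate Rps27l passed when d9 acetate replicate 2 was left out (edgeR adjusted p = 0.0262), by DESeq2 (0.0445) and without a low-count filter (0.0116), and Dcxr without that filter (0.0403). Abhd4 passed as lower without d5 replicate 1 (edgeR adjusted p = 0.0431) and, in both states, under scaling by library size only (0.0472 and 0.0488).

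The calls of 6 members held in both acetate states under all 19 alternatives to the main fit: Cdkn1a, Phlda3, Plk2, Slc19a2, Tnfrsf10b and Zmat3. Across all comparisons the 37 called values of members kept their sign under every alternative run.

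Genes around the members were read from lists of the p53 pathway, again chosen with earlier results of these data known. Of 36 tested other p53 targets, 12 were higher and 6 lower at d9 without acetate and 17 higher and 6 lower with it. That was 50% and 63.9% of the list, against 37.1% and 41.6% of all tested genes, with a median log2 change of 0.25 and 0.30 against -0.01. Psrc1, a spindle gene, rose by log2 1.79 and 1.88, and Pltp, a phospholipid transfer protein gene, by 1.37 and 1.91. Ephx1, an epoxide hydrolase gene, fell by log2 1.87 and 2.08, and the caspase gene Casp6 fell by 1.45 without acetate. In the acetate groups Casp6 stood at 6.89 and 9.47 CPM at d5 and at 4.43, 4.72 and 4.31 CPM at d9. Among the classical killers, Bax rose by log2 0.93 and 0.82 and Bbc3, which encodes PUMA, by 1.01 and 0.50, while Pmaip1, which encodes NOXA, fell by 0.96 with acetate and had a log2 change of -0.32 without it. These 3 were chosen after their values were seen.

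Of 28 tested regulators and cofactors of p53, 4 were higher and 6 lower without acetate and 7 higher and 6 lower with it. Those shares, 35.7% and 46.4%, were near the 37.1% and 41.6% of all tested genes. Chek1, a checkpoint kinase, stood at 10.3 and 8.65 CPM at d5 and at 1.84, 1.19 and 0.870 CPM at d9, and fell by log2 2.86 without and 2.78 with acetate. The damage sensor kinase gene Atr fell by log2 1.90 and 2.04, and Atm by 1.53 without acetate. In the acetate groups Atm stood at 23.9 and 10.6 CPM at d5 and at 5.90, 4.63 and 4.09 CPM at d9. Cdkn2a, whose locus encodes both the kinase inhibitor p16 and the Mdm2 inhibitor p19Arf, stood at 20.96 and 16.999 CPM at d5 and at 112, 94.3 and 100.3 CPM at d9. It rose by log2 2.43 without and 2.79 with acetate, and gene counts do not separate its 2 products. Among 6 tested inhibitors of cyclin-dependent kinases other than Cdkn1a, 2 were higher and 3 lower without acetate, and 2 higher and 2 lower with it. Those shares were 83.3% and 66.7%, against 37.1% and 41.6% of all tested genes. Besides Cdkn2a, Cdkn2b rose (log2 2.99 and 2.55), while Cdkn2c (-1.95 and -1.55) and Cdkn3 (-1.87 and -1.81) were lower in both states.

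A second list held 25 genes of mitosis and DNA replication bound by the DREAM complex, a repressor whose assembly p21 is known to favour. All 25 had a negative log2 change at d9 in both states, and 23 passed as lower without acetate and 24 with it, against 21.2% and 23.1% of all tested genes. The median log2 change was -2.20 without and -2.04 with acetate. Mki67, the gene of the Ki-67 proliferation antigen, stood at 163 and 235 CPM at d5 and at 15.2, 19.9 and 27.4 CPM at d9. Cenpf, a kinetochore gene, fell by log2 3.72 and 4.00, Bub1, a spindle checkpoint kinase gene, by 3.43 and 3.18, and Ccna2, which encodes cyclin A2, by 2.71 and 2.61. E2f1 was not past the threshold in either state and Mcm2 not without acetate. The higher Cdkn1a and the lower DREAM genes were measured in the same libraries, and their relation was not tested. Because Btg2 and Plk2 also answer to stimulation, 29 immediate early genes were read beside them: 7 were higher and 2 lower at d9 without acetate, and 19 higher and 1 lower with it. These shares were 31.0% without and 69.0% with acetate, against 37.1% and 41.6% of all tested genes. Their summed level was 4560.4 to 5136 CPM at d5 and 5039 to 6668 CPM at d9, and 3911 to 4489 CPM at d5 with acetate and 6499 to 10871 CPM at d9 with acetate. The part of the response to restimulation in the members' changes was not tested.

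**Figure D3:**
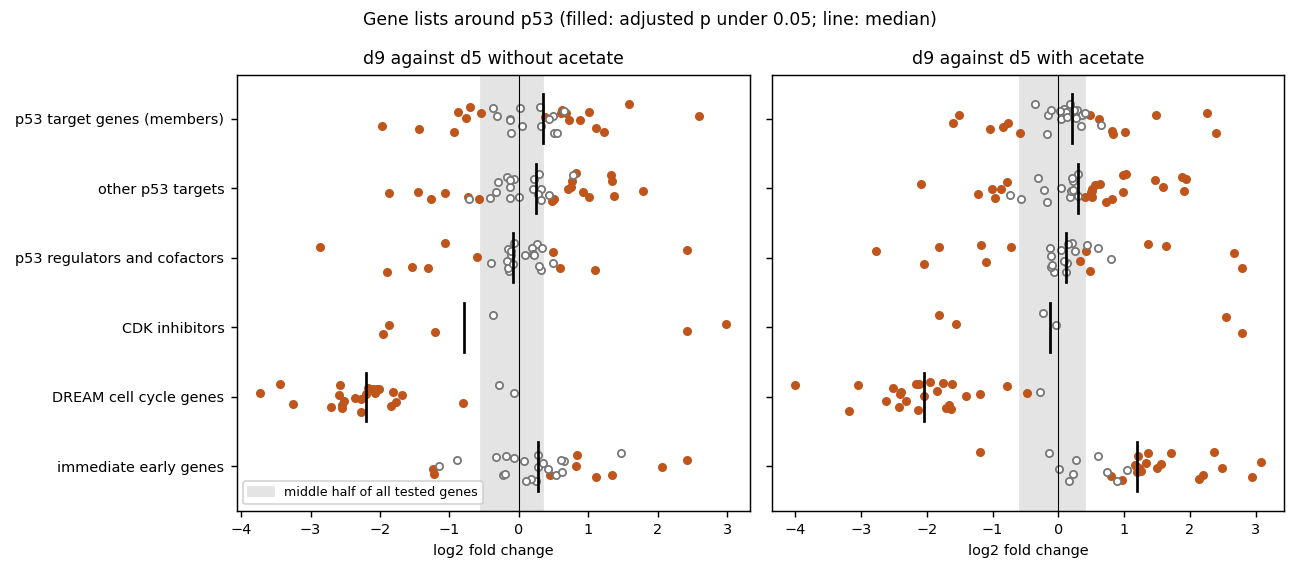
Log2 fold change of d9 against d5 (x axis) for the tested genes of each list (points, filled where the adjusted p was under 0.05; the black line is the list's median), without acetate on the left and with acetate on the right. The grey band spans the middle of all tested genes. The DREAM genes lie to the left in both panels (medians -2.20 and -2.04) while the members spread to both sides of 0 (medians 0.35 and 0.21).

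The second question was whether acetate in the last day changed the members. At d5 edgeR called 1 of 32 members, Perp, or 3.12% against 1.52% of all tested genes (0.66% higher and 0.865% lower), and 5 members had an unadjusted p under 0.05, as had 19.8% of all tested genes. Perp (ENSMUSG00000019851, chromosome 10, 18845020 to 18857073) stood at 16.3 and 16.2 CPM at d5 and at 5.32 and 5.68 CPM at d5 with acetate. At d9 it stood at 9.85, 8.04 and 8.79 CPM without and at 6.87, 6.87 and 6.14 CPM with acetate. The acetate libraries were below the others at both days. At d5 Perp fell by log2 1.56 ± 0.17 (2.96-fold lower, edgeR adjusted p = 0.00714), and at d9 its log2 change was -0.42 ± 0.13 (edgeR adjusted p = 0.194). The d5 call was lost without d5 replicate 2 (0.100), d5 acetate replicate 1 (0.0555) or d5 acetate replicate 2 (0.0645), fits in which 1 library stands for its group and is assumed to vary like the others.

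At d9 edgeR called 0 of 32 members, against 0.0303% of all tested genes (0.0303% higher and 0% lower). An unadjusted p under 0.05 was found for 6 members and for 15.4% of all tested genes, and DESeq2 and limma-voom also called 0. Groups did not overlap for 4 members that were higher (Cdkn1a, Ercc5, Plk2 and Polk) and 3 that were lower (Gadd45a, Perp and Phlda3), against 9.9% and 8.79% of all tested genes (18.7% in either direction). Cdkn1a, at 1151 to 1367 CPM without and 1458 to 1772 CPM with acetate, had a log2 change of 0.30 ± 0.12 (interval 0.06 to 0.54; edgeR adjusted p = 0.267), and at d5 its change was 0.05 ± 0.15 (-0.24 to 0.35; 0.873). Phlda3 had a log2 change of -0.36 ± 0.13 (edgeR adjusted p = 0.226) and Gadd45a one of -0.94 ± 0.28 (0.180). At d5 groups did not overlap for 9 higher and 9 lower members, against 29.8% and 29.2% of all tested genes (59% in either direction). Separation in the same direction at both days was found for 5 members (Ercc5, Gadd45a, Perp, Phlda3 and Plk2), against 10.4% of all tested genes. The sign of the acetate change was the same at both days for 22 members, against 63.2% of all tested genes.

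Trp53 was lower in both acetate libraries at d5 (199 and 185 against 255 and 293 CPM) without passing the test (log2 -0.51 ± 0.18, edgeR adjusted p = 0.167), and its log2 change at d9 was -0.30 ± 0.15 (0.366). At d5 the Trp53 change passed in a fit on the compared libraries alone (edgeR adjusted p = 0.0198) and without both d9 libraries of high ribosomal protein share (0.0063). Fas (log2 0.64 ± 0.19), Zmat3 (-0.53 ± 0.25) and Apaf1 (-0.45 ± 0.22) did not pass at d5 in the main fit. They passed on the compared libraries alone (edgeR adjusted p = 0.0392, 0.0334 and 0.0330) and without those d9 libraries (0.0175, 0.0227 and 0.0229). Mdm2 did not pass at either day (log2 -0.17 ± 0.16 at d5 and 0.10 ± 0.13 at d9, edgeR adjusted p = 0.582 and 0.790).

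Averaged over both days, acetate changed 3 of 32 members by edgeR, or 9.38% against 5.89% of all tested genes (3.35% higher and 2.54% lower). Perp fell by log2 0.99 ± 0.11 (1.99-fold lower, edgeR adjusted p = 0.00248), and this call held under all 18 alternatives, with an adjusted p of at most 0.0253. Plk2 rose by log2 0.33 ± 0.08 and Btg2 by 0.57 ± 0.14 (edgeR adjusted p = 0.0415 and 0.0432). These 2 calls were lost under 10 and 9 of 18 alternatives. For both genes these included leaving out either d5 library, either d5 acetate library, d9 replicate 2 or 3, or d9 acetate replicate 3. Plk2 also lost it without d9 acetate replicate 1 (0.0649) or a low-count filter (0.0565), and Btg2 without d9 acetate replicate 2 (0.0567). The highest adjusted p was 0.174 for each, without d5 replicate 1. Fas (log2 0.45 ± 0.12, edgeR adjusted p = 0.0589) and Trp53 (-0.41 ± 0.12, 0.0671) did not pass, but both passed without d9 replicate 1 (0.0225 and 0.0154), as did Pidd1 (0.0483). Leaving out d9 replicate 1 gave 6 calls, and 1 call was left without either d5 library, either d5 acetate library, d9 replicate 2 or 3, or d9 acetate replicate 3.

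**Figure D4:**
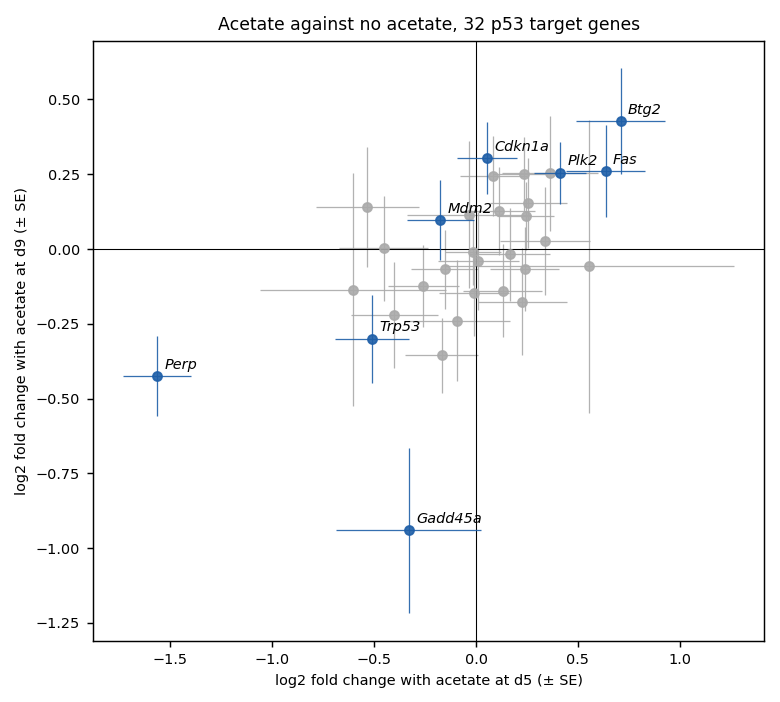
Log2 fold change with acetate at d5 (x axis) against that at d9 (y axis) for the 32 members, with bars of ± SE and named members in blue. Perp lies apart at the left (-1.56 and -0.42), and the other members lie within 1 log2 unit of 0 on both axes.

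Whether acetate acted differently at the 2 days was read from the difference of its effects. By edgeR 0 of 32 members passed, as did 0% of all tested genes, and 1 member, Perp, had an unadjusted p under 0.05, as had 7.7% of all tested genes, while DESeq2 called 1 member and limma-voom 0. The difference was above 0 for 15 members, against 48.9% of all tested genes. The effect on Perp was log2 1.14 ± 0.21 less negative at d9 than at d5 (interval 0.72 to 1.56; edgeR adjusted p = 0.134), and its adjusted p ranged from 0.00378 to 0.504 over 18 alternatives. It passed without a low-count filter, by the DESeq2 Wald test and without both d9 libraries of high ribosomal protein share. The same difference is the gap between the day comparisons: Perp fell at d9 without acetate, and with acetate its log2 change was 0.27 ± 0.15 (edgeR adjusted p = 0.186). Zmat3 had the next largest difference (log2 0.67 ± 0.32, edgeR adjusted p = 0.674). Of the lists around p53, acetate at d5 lowered Cdkn2c (log2 -0.95 ± 0.19, edgeR adjusted p = 0.0411) and 7 of 36 other targets, 4 of 28 regulators and 6 of 25 DREAM genes had an unadjusted p under 0.05 without passing after adjustment, where 19.8% of all tested genes had one. Averaged over both days, 2 of 36 other targets passed as lower (5.56%), Trp53i13 (log2 -0.50) and Prkab1 (-0.40). Of 28 regulators 1 passed as higher (3.57%), Dyrk2 (log2 0.44). Cdkn2c passed as lower (log2 -0.75), 1 of 6 tested inhibitors (16.7%), and 0 of 25 DREAM genes passed. Of all tested genes 5.89% passed in this comparison. DREAM genes had a negative change with acetate in 23 of 25 cases at each day (medians -0.48 at d5 and -0.28 at d9), while 51.3% and 51% of all tested genes had a positive one. At d5 acetate also lowered 3 of 29 immediate early genes, Jun (log2 -1.34), Dusp1 (-1.27) and Btg1 (-0.74). That was 10.3% of the list, against 1.52% of all tested genes called (0.865% lower), and the list's median was -0.15. At d9, 24 of the 29 had a positive change (median 0.49), against 51% of all tested genes. An unadjusted p under 0.05 was found for 17 of the 29, without passing after adjustment, and for 15.4% of all tested genes. The difference of effects was positive in 26 of 29, against 48.9% of all tested genes, again without passing. Over both days on average, Gadd45g (log2 0.57) and Klf6 (0.36) passed as higher and Dusp1 (-0.80) and Jun (-0.48) as lower. These were 4 of the 29, or 13.8% against 5.89% of all tested genes. At d5 Btg2 and Plk2 had positive changes that did not pass (0.71 ± 0.22 and 0.41 ± 0.13). Both passed by the DESeq2 Wald test (adjusted p = 0.0495 and 0.0450). They also passed without both d9 libraries of high ribosomal protein share (edgeR adjusted p = 0.0373 and 0.0246). Btg2 passed as well on the compared libraries alone (edgeR adjusted p = 0.0171) and without a low-count filter (0.0152).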

How the data were processed

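Polyadenylated RNA of 10 samples was sequenced from stranded libraries on an Illumina instrument, per the labels. The authors deposited raw counts for each gene, made with tools that the submitters' processing notes name as STAR, featureCounts, deepTools and DESeq2, on GRCm38. The sources used here name no versions, strand setting or annotation release. Of 53465 gene identifiers, 53274 were matched to GENCODE M21 for symbols, coordinates and exon length.

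Analysis used R 4.3.3 with edgeR 4.0.16, limma 3.58.1 and DESeq2 1.42.0. TMM scaling and filtering by group (filterByExpr) left 13182 genes. One quasi-likelihood model with 4 group means (6 residual degrees of freedom) was fitted across all genes. It gave 6 comparisons: d9 against d5 without and with acetate, acetate at d5, acetate at d9, its average over both days, and the difference of its effects. P-values were adjusted by Benjamini-Hochberg over all tested genes, with a threshold of 0.05. SE was taken as the size of the log2 change over the root of F, and intervals are ± 2 SE.

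The members, the gene lists and the tests were chosen with earlier results of these data known. Every member past the threshold in any comparison, and always Trp53, Cdkn1a, Mdm2 and Mdm4, is given in every sample, and other members by range. Of other lists, up to 4 genes past the threshold with the largest change were eligible to be named, or, where none passed, the 2 with the lowest p. The day changes of Bax, Bbc3 and Pmaip1, and the mention of E2f1 and Mcm2, fall outside this rule. The fit was repeated with limma-voom, the Wald test of DESeq2, its size factors, a replicate block, scaling by library size only, a minimum of 2 CPM in 2 samples, all genes with at least 1 count, only the libraries compared, each library left out, and without both d9 libraries of high ribosomal protein share. The scripts were tested on simulated data.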

Additional observations from a re-analysis of the deposited data

How the results depend on the processing

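Counts of members past the threshold moved with the settings as follows. For acetate at d5 the count of 1 became 2 without a low-count filter, 3 by the DESeq2 Wald test, 6 in a fit on only the libraries compared and 7 without both d9 libraries of high ribosomal protein share, and it was 0 to 1 leaving out single libraries. For acetate over both days the count of 3 became 5 by DESeq2, 1 with a replicate block and 6 without both those libraries, and ranged from 1 to 6 leaving out single libraries. For the difference of acetate effects the count of 0 became 1 without a low-count filter, by DESeq2 and without both libraries. Leaving out single libraries gave 11 to 19 members for d9 against d5 without acetate and 8 to 17 with it. Acetate at d9 stayed at 0 members under all 19 alternatives. Of 155 uncalled values over the 6 comparisons, 54 had another sign under at least 1 alternative. For Trp53, Cdkn1a, Mdm2 and Mdm4, in the comparisons of days and of acetate within a day, these were Cdkn1a for acetate at d5 (-0.052 to 0.16 leaving out single libraries, lowest without d5 replicate 1), Mdm2 for acetate at d9 (-0.05 to 0.192, lowest without d9 acetate replicate 1), and Mdm2 for d9 against d5 without acetate (-0.094 with library size only, -0.007 with the 2 CPM filter, -0.096 to 0.133 leaving out single libraries, negative without d5 replicate 2 and, at -0.008, without d9 replicate 1, and -0.05 without both libraries of high ribosomal protein share). Trp53 changed sign for d9 against d5 with acetate (-0.01 with library size only) and without it (-0.219 to 0.04 leaving out single libraries, highest without d9 replicate 1, and 0.0 without both libraries). Scaling by library size only moved the median log2 change of all genes to -0.11 in both day comparisons. The causes were not tested.

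Deviations from the group mean correlated between same-numbered libraries with and without acetate at 0.029 at d5 and at -0.139, -0.392 and 0.329 at d9. Different-numbered d9 libraries correlated at -0.427 to 0.509, highest between the 2 libraries of high ribosomal protein share. With 2 libraries per d5 group the deviations mirror each other. These values cannot decide whether replicate numbers pair the samples. With the replicate block 19 and 15 members passed for d9 against d5 without and with acetate, 1 for acetate at d5, 0 for acetate at d9, 0 for the difference and 1 over both days. In the day comparisons the block added Dcxr without acetate (adjusted p = 0.0386) and Ccng1 with it (0.0272) and dropped Pidd1 with it (0.0506). Over both days it dropped Plk2 (0.0756) and Btg2 (0.0777).

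Over all genes tested, acetate called 201 genes at d5, 4 at d9 and 777 over both days by edgeR, and DESeq2 called 786, 335 and 1435. Without a low-count filter the 3 counts were 578, 197 and 1050, and without both d9 libraries of high ribosomal protein share they were 2162, 213 and 2667. The 2 libraries in each d5 group limit the precision of every comparison that uses them.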
